A study of Homo sapiens with 8 samples.

Results

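Ribosome footprints of 10 short-lived regulators were followed in HAP1 cells, a near-haploid, adherent human cell line that came from a chronic myeloid leukaemia line. The genes were MYC, KLF2, KLF4, KLF6, KLF10, ID1, ID2, ID3, HES1 and MCL1. They were taken as a list of Ensembl gene IDs, by a rule that uses no measured value. The list was, however, chosen with earlier results of these data known. All 10 genes were found among the 19580 transcripts of the table, which lists 1 transcript per gene. The groups were RNF14 knockout at 30 min of recovery, RNF14 knockout at 0 min, wild type at 30 min and wild type at 0 min, with 2 biological replicates each. The E3 ubiquitin ligase RNF14 marks translation factors trapped on stalled ribosomes, and the labels do not say whether the knockout was 1 clone. Cells of every group had been given 5 uM 4-thiouridine (4SU), a uridine analogue that crosslinks RNA to protein under UVA, for 18 h and then 6 kJ/m2 of UVA. No group lacked 4SU or light, so the comparisons concern recovery after crosslinking and the loss of RNF14, not crosslinking itself.

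These genes share rapid turnover of mRNA and protein, so that their levels follow changes in synthesis quickly; turnover was not measured here. MYC is a basic helix-loop-helix leucine zipper factor that pairs with MAX and drives growth and ribosome production. KLF2, KLF4, KLF6 and KLF10 are Krüppel-like zinc finger factors that bind GC-rich promoter elements. The ID proteins have a helix-loop-helix domain but no DNA-binding region, so they hold E proteins off DNA, and their genes are classic targets of BMP and SMAD signalling. HES1 is a helix-loop-helix repressor downstream of Notch that also represses its own gene. MCL1 is an anti-apoptotic member of the BCL2 family that is lost within a short time once its synthesis stops.

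Footprint levels are in RPKM, reads scaled to the length of the transcript and to the depth of the library. Libraries held from 323946 to 1241975 reads, and the 30 min libraries were all shallower than the 0 min ones, which means that sequencing depth cannot be told apart from recovery time. The 10 genes together took between 0.0765% and 0.123% of the reads of a library. Their own reads, summed over the 8 libraries, ran from 34 for KLF4 to 2229 for MYC. No matched RNA values were analysed here, and in a bulk lysate neither mRNA amount and translation nor the number of cells and the footprints per cell can be told apart. The identity of HAP1 and the footprints of RNF14 were not checked, because the gene table used here has no Ensembl IDs with which to find marker genes.

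The only member that passed the main test in any comparison was ID1 (ENSG00000125968), which rose during recovery when both genotypes were averaged. It lies on chromosome 20 from 31605289 to 31606510, and its listed transcript has 983 nt. ID3 (ENSG00000117318), its relative on chromosome 1 from 23557926 to 23559501 with a listed transcript of 950 nt, had the highest mean level of the group. The sequence of the 250 bases before the start of both genes is shown because ID1 carried the call and ID3 is the other abundant ID gene; both are from RefSeq (GRCh38.p14, the assembly of the hg38 build named by the submitters). The ID1 window is chr20:31605039-31605288 on the plus strand and the ID3 window is chr1:23559502-23559751 on the minus strand. Capitals mark 3 short motifs, searched on both strands and explained after the sequences.
ID1: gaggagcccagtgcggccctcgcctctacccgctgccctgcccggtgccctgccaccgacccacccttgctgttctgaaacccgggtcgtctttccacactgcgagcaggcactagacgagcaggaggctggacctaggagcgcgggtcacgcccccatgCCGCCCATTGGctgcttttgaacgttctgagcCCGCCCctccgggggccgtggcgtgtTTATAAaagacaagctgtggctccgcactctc
ID3: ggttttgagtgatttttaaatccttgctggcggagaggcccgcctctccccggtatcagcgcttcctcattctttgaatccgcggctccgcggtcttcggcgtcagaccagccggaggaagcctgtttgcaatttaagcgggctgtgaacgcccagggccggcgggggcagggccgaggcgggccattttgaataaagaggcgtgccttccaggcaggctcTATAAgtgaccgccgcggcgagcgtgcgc

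The motifs in capitals were TATAA, the core of a TATA box, the CCAAT box, and GGGCGG, the core of a GC box of the kind that SP and Krüppel-like factors bind. In the ID1 window TATAA was present on both strands in overlap, beginning 31 bases before the start on the gene's own strand. Further upstream lay 1 CCAAT and 2 GGGCGG matches, all on the opposite strand, with 1 of the GGGCGG matches next to CCAAT. The ID3 window held a TATAA beginning 29 bases before the start and neither of the other motifs. Promoter windows were found for 7 of the 10 genes: ID1, ID2, ID3, HES1, KLF2, KLF4 and KLF6. Among these 7, TATAA was present in 4, CCAAT in 4 and GGGCGG in 5. Over 35116 RefSeq windows of the same length the shares were 18.9%, 32.0% and 42.6%. CACGTG, the E-box that MYC and MAX bind, was present in 2 of the 7, KLF4 and KLF6, and in 6.34% of all windows. These matches describe the letters of the windows and no binding was measured.

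In order of mean level over the 8 libraries, ID3 stood at 287 ± 89.0 RPKM, MYC at 194 ± 70.1, ID1 at 105 ± 41.6 and MCL1 at 41.9 ± 8.85 (SD over 8 libraries, n = 8). Below them came KLF6 at 19.8 ± 2.99, ID2 at 16.8 ± 2.82, HES1 at 13.2 ± 3.02, KLF2 at 6.75 ± 3.39, KLF10 at 3.07 ± 0.917 and KLF4 at 1.83 ± 1.26 RPKM (SD, n = 8). The abundant members thus included 2 ID genes, while 3 of the 4 Krüppel-like genes were the least read. ID3 ranked 287th and KLF4 11112th of the 19580 transcripts by mean level. ID1 was above MCL1, and MCL1 above KLF6, with no overlap between libraries in RPKM. The other neighbours overlapped in range: MYC was above ID1 in 8 of 8 libraries, ID3 above MYC in 7 and KLF6 above ID2 in only 5. The order between genes rests in part on the listed transcript lengths, and how those transcripts were chosen is not given. MCL1 and KLF6 had 261 and 247 reads in all, on 1110 and 2169 nt. MYC had 2229 reads against 1565 for ID3, on 2042 and 950 nt.

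**Figure D1:**
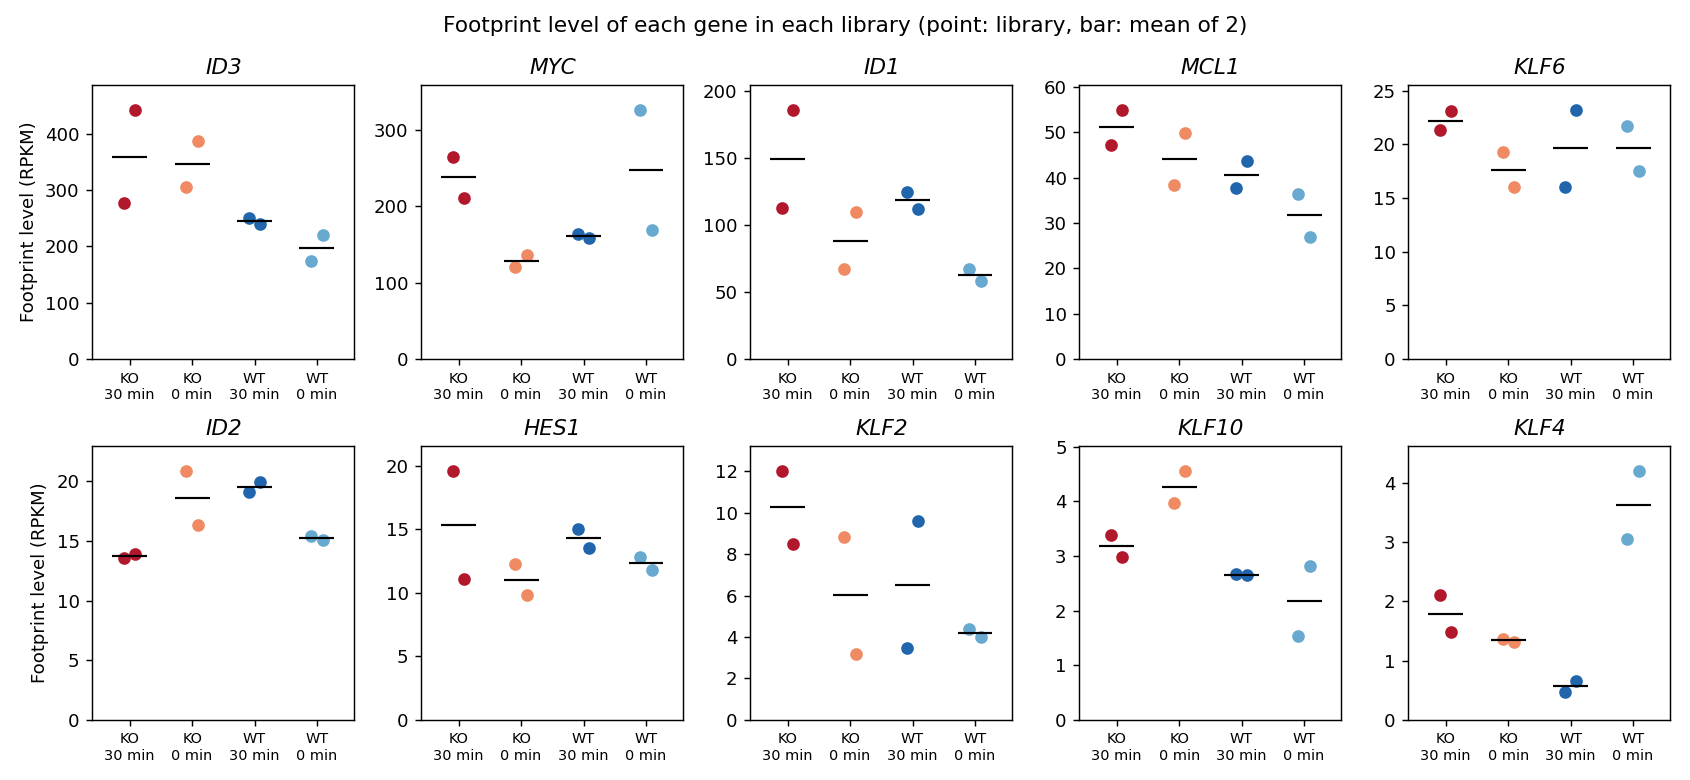
Footprint level in RPKM of each of the 10 genes (vertical axis, from 0) in RNF14 knockout (KO) and wild type (WT) at 30 and 0 min (horizontal axis); each point is 1 library and each bar the mean of 2. ID1 at 30 min is at 112 to 186 RPKM and at 0 min at 58.6 to 109.7 RPKM, while MYC has its highest value, 326 RPKM, in 1 library of wild type at 0 min.

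ID1, an inhibitor of helix-loop-helix factors, had 113 and 186 RPKM in the knockout at 30 min, against 67.2 and 109.7 RPKM in the knockout at 0 min. In wild type it had 125 and 112 RPKM at 30 min, against 67.4 and 58.6 RPKM at 0 min. In both genotypes together the 4 later libraries exceeded the 4 earlier ones, although the highest of the 0 min libraries, from the knockout, came close to the lowest of the 30 min libraries, from wild type. The group means were 149.6 ± 51.6 RPKM in the knockout at 30 min, 88.5 ± 30.1 in the knockout at 0 min, 118 ± 8.79 in wild type at 30 min and 63.0 ± 6.20 in wild type at 0 min (SD, n = 2 each). Averaged over genotypes, ID1 rose by a log2 change of 0.83 (SE 0.20, limma-trend on log2(RPKM + 1), adjusted p = 0.0332 over 11920 transcripts). Its 265 reads at 30 min, against 281 at 0 min in deeper libraries, gave a 1.82 times larger share of the reads (exact 95% counting interval 1.53 to 2.15). Within each genotype the log2 changes were 0.75 (SE 0.28, limma adjusted p = 0.192) in the knockout and 0.90 (SE 0.28, limma adjusted p = 0.105) in wild type, neither of which passed alone. With limma voom, a test on the whole reads recovered from the RPKM values, ID1 also passed in wild type (log2 0.92, adjusted p = 0.0202) and missed in the knockout (log2 0.85, adjusted p = 0.0582).

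The ID1 call depended on single libraries. Leaving out knockout 30 min replicate 2 ended it (limma adjusted p = 0.0626), as did leaving out knockout 0 min replicate 1 (limma adjusted p = 0.131). In wild type, dropping replicate 1 or replicate 2 at 30 min gave limma adjusted p = 0.111 and 0.0943, and at 0 min 0.0633 and 0.117. The call also ended with TPM scaling (limma adjusted p = 0.0515), with no filter (0.0604) and with no trend in the prior variance (0.118). In the 9 fits that lost the call the log2 change ran from 0.62 to 0.88. Leaving out knockout 30 min replicate 1 or knockout 0 min replicate 2 kept the call (0.0138 and 0.0439).

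Of the 10 members, all of which passed the filter of a mean of 1 RPKM, 1 was called in the averaged recovery, where 7.79% of the 11920 tested transcripts were called. Before adjustment, p was below 0.05 for 1 member, ID1, and for 24.3% of transcripts, and limma voom called 1 member and 11.3% of transcripts. ID1 was also the only member whose 4 libraries at 30 min all lay above the 4 at 0 min, which held for 3.17% of transcripts. The median log2 change was 0.17 over the members and -0.19 over all tested transcripts. A positive change was seen for 7 members and for 31.1% of transcripts. That count depended on scaling: it was 9 members after median centring or quantile normalization, where the median log2 change of all transcripts was -0.01 or -0.02, and 4 members with TPM, where it was -0.39. Over all transcripts the calls numbered 292 higher and 637 lower at 30 min, against 342 and 90 after median centring, 422 and 247 after quantile normalization and 219 and 1946 with TPM. The log2 estimates of the other 9 members, from -0.65 for KLF4 to 0.60 for KLF2, did not pass the test.

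**Figure D2:**
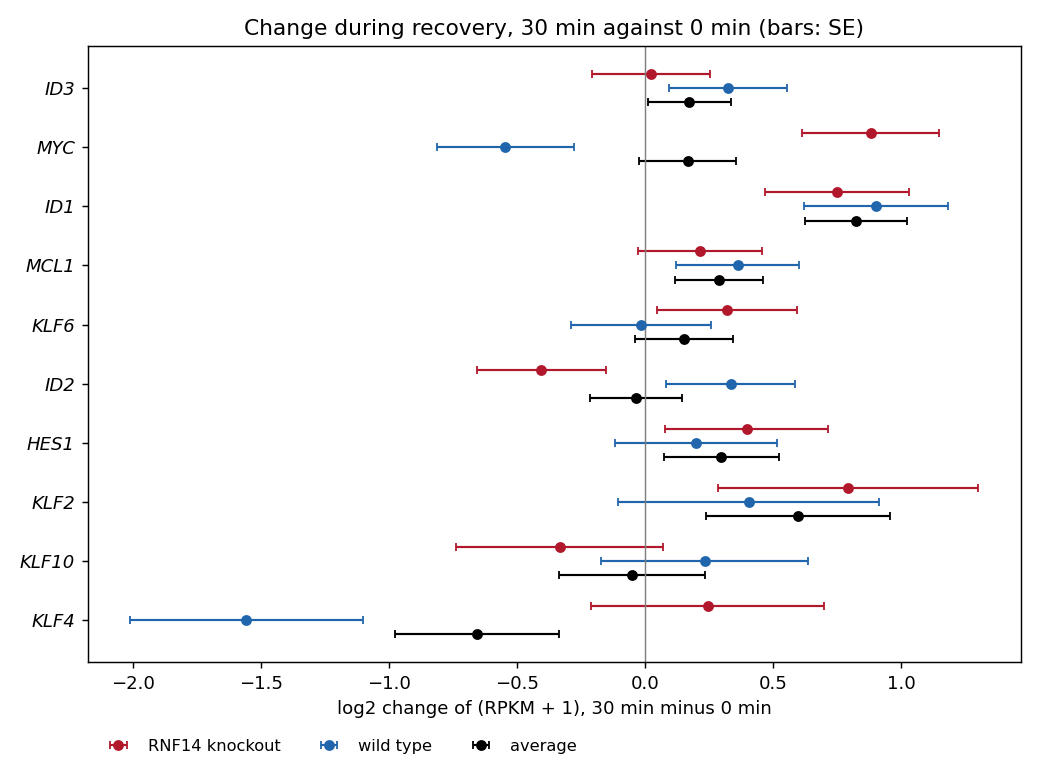
Change from 0 to 30 min of recovery for each gene (rows, by mean level) as log2 of (RPKM + 1) at 30 min minus 0 min (horizontal axis), in RNF14 knockout, wild type and their average; points are limma estimates and bars are 1 SE. ID1 lies right of 0 in all 3 estimates (0.75, 0.90 and 0.83), while MYC lies at 0.88 in the knockout and at -0.55 in wild type.

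MYC (ENSG00000136997), on chromosome 8 from 127735434 to 127742951 with a listed transcript of 2042 nt, had opposite estimates in the genotypes. It had 265 and 211 RPKM in the knockout at 30 min, against 120.3 and 136 RPKM in the knockout at 0 min. In wild type it had 163 and 158 RPKM at 30 min, against 326 and 169 RPKM at 0 min. The knockout libraries at 30 min thus lay above those at 0 min, and the wild-type libraries at 30 min lay below those at 0 min. Replicate 1 of wild type at 0 min was the highest of all 8 libraries, and its partner, at 169 RPKM, was close to the 30 min values. In the knockout the log2 change was 0.88 (SE 0.27, limma adjusted p = 0.121) on 373 reads at 30 min and 521 at 0 min. The share of reads was 1.85 times larger at 30 min (exact 95% counting interval 1.61 to 2.11). In wild type the log2 change was -0.55 (SE 0.27, limma adjusted p = 0.276) on 406 reads against 929, and the share of reads was 0.659 times that at 0 min (counting interval 0.585 to 0.742).

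The difference between the MYC recoveries was 1.43 on the log2 scale (SE 0.38, unadjusted p = 0.00348, limma adjusted p = 0.247), so it did not pass over all transcripts. On recovered reads, limma voom gave 1.42 (SE 0.30, adjusted p = 0.00857). Leaving out the high library, wild type 0 min replicate 1, gave a difference of 0.96 (limma adjusted p = 0.460), and the MYC change in wild type was -0.08. Leaving out replicate 2 of that group gave 1.90 (limma adjusted p = 0.170), and the change in wild type was -1.02. Neither of these wild-type libraries enters the recovery of MYC in the knockout, and its estimate stayed at 0.88 when either was left out. Such a fit leaves wild type at 0 min with 1 library. The spread of that group then drops out of the error shared by all groups, so no conclusion is drawn from the test there. With voom on all libraries the knockout recovery was also 0.88 and passed (adjusted p = 0.0115), while in the main limma fit it did not pass.

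ID2 and KLF4 were the other members whose groups did not overlap in either genotype and ran in opposite directions. ID2 (ENSG00000115738), on chromosome 2 from 8682056 to 8684461 with a listed transcript of 2041 nt, had 13.6 and 13.9 RPKM in the knockout at 30 min, against 20.9 and 16.4 RPKM in the knockout at 0 min. In wild type it had 19.1 and 19.9 RPKM at 30 min, against 15.4 and 15.1 RPKM at 0 min. Its RPKM values were thus lower at 30 min in the knockout and higher at 30 min in wild type. The difference between recoveries was -0.74 on the log2 scale (SE 0.36, limma adjusted p = 0.399). In the knockout ID2 had 22 reads at 30 min and 79 at 0 min, with a ratio of read shares of 0.719 (exact 95% counting interval 0.426 to 1.16). In wild type it had 49 reads against 58, with a ratio of 1.27 (counting interval 0.853 to 1.90). Both intervals included 1. KLF4 (ENSG00000136826), a factor used in reprogramming to pluripotency, lies on chromosome 9 from 107484852 to 107489769 and its listed transcript has 2936 nt. It had 2.10 and 1.48 RPKM in the knockout at 30 min, against 1.37 and 1.31 RPKM in the knockout at 0 min. In wild type it had 0.474 and 0.660 RPKM at 30 min, against 3.06 and 4.21 RPKM at 0 min. In wild type these values rest on 2 reads at 30 min and on 20 at 0 min. The share of reads at 30 min was 0.151 times that at 0 min, and its exact 95% counting interval ran from 0.0171 to 0.621. In the knockout KLF4 had 4 reads at 30 min, 2 in each library, and 8 at 0 min. The share of reads there was 1.29 times that at 0 min, and its counting interval, from 0.284 to 4.82, included 1. For KLF4 the log2 change in wild type was -1.56 (SE 0.45, limma adjusted p = 0.0897), and -2.01 with TPM scaling, where it passed (0.0395).

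In the difference between recoveries 0 of 10 members were called by limma-trend, against 0.00839% of transcripts. Before adjustment, p was below 0.05 for 2 members, MYC and KLF4, and for 13.3% of transcripts. MYC was the 1 member called by voom, with 1.05% of transcripts. Recoveries without overlap and in opposite directions were seen for 3 members, MYC, ID2 and KLF4, and for 8.82% of transcripts.

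Within the knockout, 0 members were called by limma-trend and 1.97% of transcripts were. Before adjustment, p was below 0.05 for 2 members, MYC and ID1, and for 18.4% of transcripts, and voom called 1 member, MYC, and 3.36% of transcripts. The libraries at 30 min lay above those at 0 min for 4 members (MYC, KLF4, KLF6 and ID1) and 18.6% of transcripts, and below for 2 (KLF10 and ID2) and 30.9% of transcripts. Within wild type, 0 members were called by limma-trend and 3.23% of transcripts were. Before adjustment, p was below 0.05 for 2 members, ID1 and KLF4, and for 20.9% of transcripts, and voom called 1 member, ID1, and 9.87% of transcripts. The libraries at 30 min lay above those at 0 min for 5 members (ID1, ID2, ID3, HES1 and MCL1) and 14.0% of transcripts, and below for 2 (MYC and KLF4) and 38.9% of transcripts.

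ID3, like ID1 an antagonist of E proteins, had all 4 knockout libraries above all 4 of wild type, but the difference did not pass the main test. It had 276 and 442 RPKM in the knockout at 30 min, against 251 and 241 RPKM in wild type at 30 min. At 0 min it had 305 and 388 RPKM in the knockout, against 174 and 221 RPKM in wild type. The log2 difference was 0.51 at 30 min (SE 0.23, limma adjusted p = 0.466) and 0.81 at 0 min (SE 0.23, limma adjusted p = 0.198). Averaged over both times, a comparison added after the values were seen, it was 0.66 (SE 0.16, limma adjusted p = 0.159), and the call was not made. ID3 had 925 reads in the knockout and 640 in wild type, so that its share of reads was 1.60 times larger in the knockout (exact 95% counting interval 1.44 to 1.77). Voom called ID3 at 0 min (adjusted p = 0.00814) and in the average (adjusted p = 0.00661). Leaving out knockout 30 min replicate 1 gave an averaged difference of 0.83, and leaving out replicate 2 of that group gave 0.49. Each of these fits leaves the knockout at 30 min with 1 library. The spread of that group then drops out of the shared error, so no conclusion is drawn from the test there. The recovery estimate of ID3 was 0.02 in the knockout and 0.32 in wild type on the log2 scale, neither of which passed the test.

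MYC differed from ID3 in that its genotype estimates had opposite signs at the 2 times. The log2 difference of MYC, knockout minus wild type, was 0.55 at 30 min (SE 0.27, limma adjusted p = 0.489) and -0.87 at 0 min (SE 0.27, limma adjusted p = 0.222). At 0 min the MYC estimate was -0.40 when the high wild-type library was left out and -1.34 when its partner was left out, and voom called it (-0.88, adjusted p = 0.00418). These genotype estimates use the same 8 libraries as the recovery estimates, and the change of sign is tested by the difference in recovery.

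**Figure D3:**
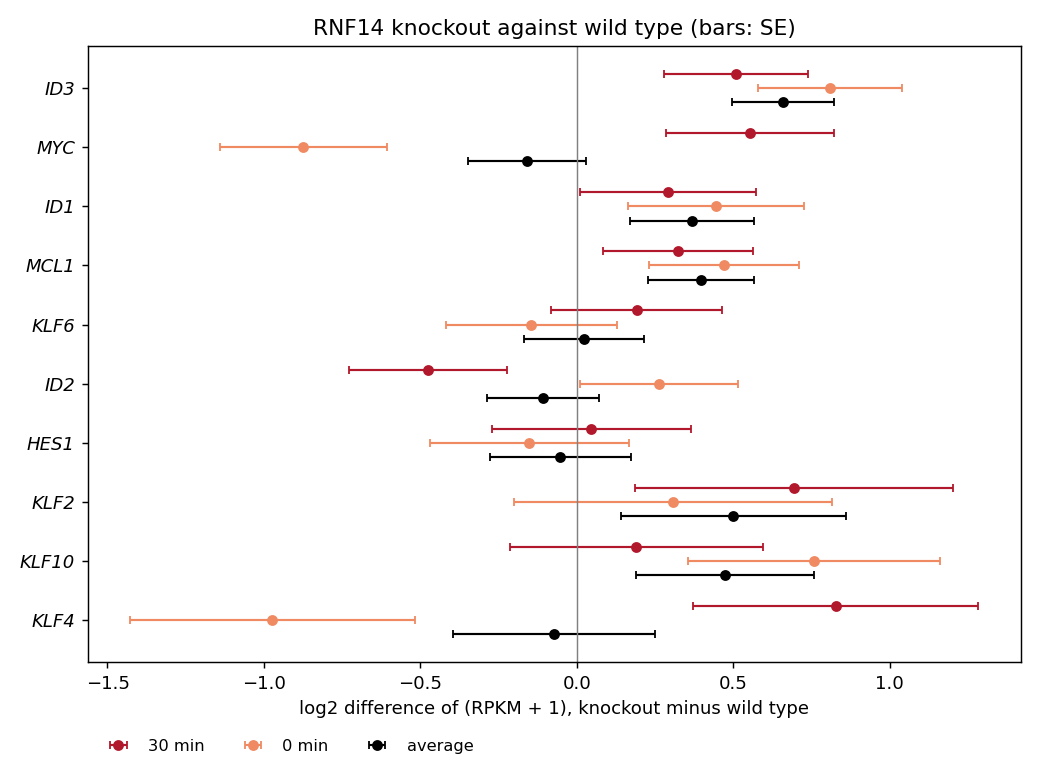
Difference between RNF14 knockout and wild type for each gene (rows, by mean level) as log2 of (RPKM + 1), knockout minus wild type (horizontal axis), at 30 min, at 0 min and averaged; points are limma estimates and bars are 1 SE. ID3 lies right of 0 in all 3 estimates (0.51, 0.81 and 0.66), while MYC lies at 0.55 at 30 min and at -0.87 at 0 min.

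At 30 min, 0 members were called between genotypes by limma-trend and 0.126% of transcripts were. Before adjustment, p was below 0.05 for 0 members and 10.9% of transcripts, and voom called 0 members and 0.176% of transcripts. At 0 min, 0 members and 0.168% of transcripts were called by limma-trend. At that time p before adjustment was below 0.05 for 2 members, ID3 and MYC, and for 13.6% of transcripts, and voom called the same 2 members and 6.95% of transcripts. Averaged over both times, 0 members and 0.378% of transcripts were called by limma-trend, 2 members (ID3 and MCL1) and 11.2% of transcripts reached an unadjusted p below 0.05, and voom called 1 member, ID3, and 1.48% of transcripts. All 4 knockout libraries lay above all 4 wild-type libraries for 2 members, ID3 and KLF10, and for 2.15% of transcripts.

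MCL1 (ENSG00000143384), on chromosome 1 from 150574558 to 150579610 with a listed transcript of 1110 nt, varied 2.04-fold between its lowest and highest library. It had 47.3 and 54.9 RPKM in the knockout at 30 min and 38.4 and 49.7 RPKM in the knockout at 0 min. In wild type it had 37.7 and 43.6 RPKM at 30 min and 36.4 and 26.9 RPKM at 0 min. The groups overlapped in the knockout and did not in wild type, and the averaged recovery of 0.29 (SE 0.17, limma adjusted p = 0.334) did not pass. The knockout minus wild type difference averaged over times was 0.40 (SE 0.17, limma adjusted p = 0.424).

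Of the remaining Krüppel-like genes and HES1, KLF6 had 247 reads in all, while HES1 had 118, KLF2 103 and KLF10 67. KLF6 (ENSG00000067082), on chromosome 10 from 3775996 to 3785209 with a listed transcript of 2169 nt, kept within 16.0 to 23.2 RPKM in all 8 libraries, the narrowest relative range of the 10 genes. HES1 (ENSG00000114315), on chromosome 3 from 194136148 to 194138732 with a listed transcript of 1575 nt, ranged from 9.78 to 19.6 RPKM, and both ends came from the knockout. KLF2 (ENSG00000127528), known from endothelial and T cell quiescence, lies on chromosome 19 from 16324826 to 16328685 and has a listed transcript of 2820 nt. It averaged 10.3 ± 2.51 RPKM in the knockout at 30 min, 6.02 ± 4.00 in the knockout at 0 min, 6.54 ± 4.35 in wild type at 30 min and 4.20 ± 0.258 in wild type at 0 min (SD, n = 2 each), on 7 to 31 reads a library. Its averaged recovery of 0.60 (SE 0.36, limma adjusted p = 0.341) did not pass. Replicates lay furthest apart in the knockout at 0 min and in wild type at 30 min, and close together in wild type at 0 min.

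KLF10 (ENSG00000155090), first known as a TGF-beta inducible early gene, lies on chromosome 8 from 102648784 to 102655725 and has a listed transcript of 3659 nt. It had 3.37 and 2.98 RPKM in the knockout at 30 min, against 2.67 and 2.65 RPKM in wild type at 30 min. At 0 min it had 3.96 and 4.56 RPKM in the knockout, against 1.53 and 2.81 RPKM in wild type. All 4 knockout libraries lay above the wild-type ones, with an averaged log2 difference of 0.47 (SE 0.29, limma adjusted p = 0.573) on 40 reads in the knockout and 27 in wild type. The ratio of read shares was 1.64, and its exact 95% counting interval, from 0.980 to 2.77, included 1.

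Over the 8 libraries, the members' patterns were compared by Pearson's r of log2(RPKM + 1), given as a description because the libraries share depth and group. The most alike pair was ID1 and MCL1 (r = 0.82), followed by KLF2 and KLF6 (0.77), KLF10 and ID3 (0.75) and ID3 and MCL1 (0.73). ID1 and ID3 had r = 0.66. MYC ran against KLF10 (-0.71) and ID2 (-0.69). Among 3493 other transcripts with a mean of at least 50 reads, the pattern nearest to MYC was that of ENSG00000139613, a transcript of 4076 nt (r = 0.98), followed by transcripts of 1988 and 4962 nt (0.97 each). For MCL1 it was ENSG00000167969, a transcript of 948 nt (r = 0.91), followed by transcripts of 1452 nt (0.91) and 3057 nt (0.90). These were the highest of 3493 values over 8 points, and these IDs are paired with no gene name in the sources used here.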

How the data were processed

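Footprints of 8 HAP1 libraries were analysed. Per the labels' protocols, cells were lysed with cycloheximide, lysates were digested with RNase I and footprints were size-selected, ligated, reverse transcribed and amplified. Reads were handled with cutadapt and STAR 2.7.10a against hg38, per the submitters' processing notes. For the choice of 1 transcript per gene and for the region counted, the method is not given in the sources used here. RPKM values and transcript lengths were deposited by the authors. RPKM times length gave whole reads for 100% of values above 0 (tolerance 0.05). One column, knockout at 30 min replicate 1, has a suffix no label explains and was matched by genotype, time and replicate.

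Log2(RPKM + 1) of the 11920 transcripts whose mean RPKM was at least 1 was tested with limma-trend (limma 3.58.1 in R 4.3.3). It had 4 group means, all 8 libraries and no replicate block, and was two-sided with Benjamini-Hochberg adjustment at 0.05. Fold changes on that scale understate those of low genes. Counting intervals are exact 95% binomial (Clopper-Pearson) and cover counting error only. Alternatives were each library left out in turn, other pseudocounts, filters and scalings, a replicate block, a prior with no trend, fits limited to the compared groups, and voom. A planned count test was not run and was replaced by voom on recovered reads, a choice made after seeing the data. Libraries with the same replicate number did not deviate together (correlations from -0.08 to 0.07 over 6 pairs of groups), and the main fit did not pair them. Counting error in transcripts with few reads pulls such correlations toward 0, so the check cannot show that the replicates were unpaired.

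The members, lists and comparisons were chosen with earlier results of these data known. All members are named, with the nearest patterns to MYC and MCL1. Gene names are those of the list itself. Lists of partner and target genes and of lineage markers were not examined, since 0 of 19580 IDs matched the gene table, which pairs no Ensembl ID with a symbol. Python 3.11.15, pandas 2.3.3, scipy 1.17.1 and matplotlib 3.10.9 were used.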

Additional observations from a re-analysis of the deposited data

Results flagged for a closer look

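MYC, KLF4 and ID2 were marked because their groups did not overlap between times in either genotype and ran in opposite directions. This held for 3 of 10 members and for 8.82% of the 11920 tested transcripts. The libraries of each time are separate samples, so no library was followed over time. The difference between recoveries was tested for each of these 3 genes and passed for none (limma-trend, adjusted over 11920 transcripts). It was 1.43 for MYC (adjusted p = 0.247), 1.80 for KLF4 (adjusted p = 0.287) and -0.74 for ID2 (adjusted p = 0.399), on the log2 scale, knockout recovery minus wild-type recovery. MYC rests on the most reads of the 3 but has 1 high library in wild type at 0 min, and KLF4 on 34 reads in all. The counting interval of the recovery included 1 for KLF4 in the knockout and for ID2 in both genotypes.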

How the results depend on the processing

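The call of ID1 in the averaged recovery ended with TPM, with no filter and with no trend in the prior, each leaving 0 members called, and leaving out 1 library gave 0 to 1 members. Voom called 1 member (MYC) and 3.36% of transcripts in the recovery of the knockout, and 1 (ID1) and 9.87% in that of wild type. Between genotypes it called 2 members and 6.95% of transcripts at 0 min, and 1 and 1.48% averaged over times. In the difference in recovery it called 1 member and 1.05% of transcripts. TPM gave 1 member (KLF4) in wild-type recovery, where 1385 of 11920 transcripts were called. The replicate block changed no call of a member, with an ID1 estimate of 0.83 (limma adjusted p = 0.0325). The planned count test was not run. With a mean RPKM of 5, KLF4 and KLF10 were not tested. Only values that were not called changed sign, and the cause was not tested.

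With TPM, the averaged recovery became -0.0387 for MYC, -0.0457 for KLF6 and -0.0334 for ID3, knockout recovery -0.0926 for ID3, wild-type recovery -0.0810 for HES1, and the difference in recovery 0.0286 for ID1 and 0.0318 for MCL1. With median centring and quantile normalization, the averaged recovery became 0.13 and 0.0916 for KLF10 and 0.14 and 0.15 for ID2, and wild-type recovery 0.26 and 0.27 for KLF6. HES1 became -0.0105 in the difference in recovery with centring, and -0.0264, -0.00439 and -0.00486 at 30 min between genotypes with centring, quantile normalization and voom. KLF10 in the averaged recovery became 0.0204 with voom. In knockout minus wild type averaged over times, KLF6 (0.0229) became -0.0127 with TPM. KLF4 (-0.0729) became 0.0719 with a pseudocount of 0.1, 0.0042 with quantile normalization and 0.0334 with voom in that comparison. Leaving out 1 library turned the averaged genotype estimates of MYC, KLF4, KLF6 and HES1 in at least 1 fit each, and from 5 to 7 members were positive.

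Leaving out 1 library at a time, the difference in recovery ran from -0.24 to 1.01 for KLF2, -0.51 to 0.20 for ID1, -0.64 to 0.0374 for ID3, -0.19 to 0.58 for HES1 and -0.36 to 0.0655 for MCL1. Knockout minus wild type at 0 min ran from -0.31 to 0.92 for KLF2 and -0.29 to 0.0012 for KLF6, and at 30 min from -0.0614 to 0.44 for KLF6, -0.0654 to 0.65 for ID1 and -0.34 to 0.43 for HES1. The averaged recovery ran from -0.0673 to 0.40 for MYC, -0.20 to 0.10 for KLF10 and -0.12 to 0.0495 for ID2. Knockout recovery of ID3 ran from -0.32 to 0.36, and wild-type recovery from -0.22 to 1.03 for KLF2, -0.27 to 0.24 for KLF6 and -0.0607 to 0.53 for KLF10. Depth limits the low members: 1 read of KLF4 is worth 0.274 to 1.05 RPKM.

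Over all 11920 transcripts the number called also moved with the setting, leaving out single libraries included. It was 929 in the averaged recovery (99 with no trend to 2165 with TPM), 235 in the knockout (0 with no trend to 571 with TPM) and 385 in wild type (2 with no trend to 1385 with TPM). Knockout against wild type it was 15 at 30 min (1 with only those groups to 126 with a library left out), 20 at 0 min (3 to 829 with voom) and 45 averaged over times (20 to 176 with voom), and 1 in the difference in recovery (up to 125 with voom).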
